A study of Mus musculus with 12 samples.

Results

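The sphingosine-1-phosphate (S1P) pathway genes described here are 8 genes chosen by name: the receptors S1pr1, S1pr2 and S1pr3, the kinases Sphk1 and Sphk2, the exporter Spns2, and the enzymes Plpp3 and Sgpl1 that remove the lipid. They are 8 of 54119 genes with summed counts, and all 8 were among the 19150 genes that passed the filter on low counts. RNA was measured in cerebral vessels, the blood vessels isolated from the mouse brain, of wild type C57BL6 mice aged 2 to 3 months. The mice received 1 intraperitoneal injection of lipopolysaccharide (LPS, a component of the outer membrane of Gram-negative bacteria) at 10 mg/kg, and vessels were taken 15 min, 30 min or 4 h later. Control mice received PBS, and there were 3 libraries in each of the 4 groups, each labelled as a pool of 1 male and 1 female mouse, so that each group drew on 6 mice. A whole vessel preparation holds endothelial and mural cells together with blood cells and adhering brain tissue, and the pooling of the sexes leaves no separate value for either.

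S1P is a signalling lipid made from sphingosine by the sphingosine kinases and carried out of endothelial cells by the transporter Spns2. Outside the cell it acts through G protein-coupled receptors, of which S1PR1 on endothelium is known for holding the vessel barrier together through Rac, while S1PR2 is known for loosening it. The signal ends when lipid phosphatases such as Plpp3 dephosphorylate S1P or when the lyase Sgpl1 cleaves it irreversibly inside the cell.

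The libraries held 18.3 to 25.9 M estimated fragments. The defining endothelial markers Cldn5, Cdh5 and Pecam1 were measured in every group, and the group means of 8 endothelial markers, summed, were 8453, 7173, 6996 and 6448 CPM in time order from PBS. CPM are counts relative to the library total after TMM scaling, which sets libraries to a common level for the bulk of the genes. Xist, transcribed from the inactive X of females, lay between 254 and 371 CPM in the PBS libraries, 31.5 and 108 at LPS 15 min, 11.6 and 20.9 at LPS 30 min, and 125 and 184 CPM in the last group, although all pools were labelled alike for sex. It was called lower at all 3 LPS times (-2.10, -4.26 and -1.05). Ddx3y, on the Y chromosome, was called higher at 30 min (1.11) and at 4 h (1.61), and Uty, also there, at 4 h (0.86). The Y genes Eif2s3y (0.75, 0.54 and 0.67) and Kdm5d (0.59, 0.46 and 0.20) were not called at any LPS time. The sex make-up and the LPS time can therefore not be told apart in any of the 3 comparisons with PBS. Genes foreign to vessels (Muc5ac, Gp2, Reg3g and Myh1) summed to between 27.6 and 33.2 CPM in the LPS 15 min libraries, 23.6 and 24.4 at LPS 30 min (all Myh1), 3.60 and 4.85 at LPS 4 h, and at most 0.187 in PBS. Leaving the LPS 15 min libraries out of the fit gave the same numbers of called S1P genes in the comparisons among the other groups. This alternative was chosen after seeing the data. Those comparisons use the 15 min libraries only through the filter, the scaling and the shared spread, so the outcome does not bear on the foreign genes.

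Against PBS, 1 S1P gene was called at each of the early times and 7 at 4 h on the TMM scale. A gene was called when edgeR's test for a change beyond 1.5-fold reached an adjusted p (Benjamini-Hochberg, all tested genes) under 0.05. At LPS 15 min 1 of the 8 was called, Sphk1, which was lower, where 4.18% of all genes were called, 3.31% higher and 0.872% lower. At LPS 30 min 1 of 8 was called, S1pr1, which was higher, against 4.58% of all genes, 3.78% higher and 0.799% lower. At LPS 4 h 7 of 8 were called. Sphk1, S1pr1, S1pr2, S1pr3, Plpp3 and Sgpl1 were higher and Spns2 was lower, where 32.8% of all genes were called, 19.0% higher and 13.8% lower. For the 8 genes, median log2 fold changes were -0.09, -0.01 and 1.04 at the 3 times, beside medians of about 0 over all genes tested (-0.00, -0.01 and -0.01). The 3 comparisons share the same PBS libraries. In the test against no change at all, 5 of the 8 were called at 15 min, 2 higher and 3 lower, against 38.6% of all genes, 20.4% higher and 18.2% lower. At 30 min these were again 2 higher and 3 lower, against 36.9% of all genes, 19.7% higher and 17.2% lower. At 4 h all 8 were called, 6 higher and 2 lower, against 68.5%, 34.9% higher and 33.7% lower. The 3 libraries did not overlap with those of PBS for 6, 5 and 8 of the 8 genes, as was so for 49.3%, 46.7% and 70.9% of all genes. Permuting the labels of 3 against 3 libraries cannot give a p below 0.1 for 1 gene, so the calls use a spread shared across genes. The p-values measure the spread between libraries of a group, each labelled as its own pool. That spread was small, with a common coefficient of variation beyond counting noise of 0.0524. Anything that the libraries of a group shared besides the treatment cannot be told apart from it.

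**Figure D1:**
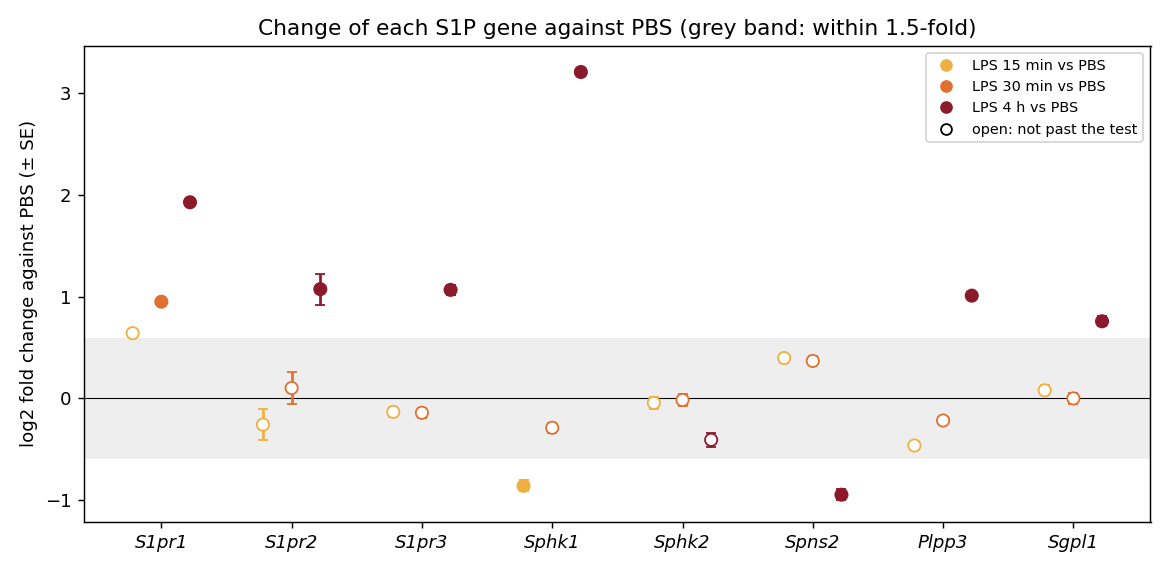
Log2 fold change of each S1P gene against PBS (y axis, ± SE) at the 3 times after LPS, with filled points for genes called beyond 1.5-fold and open points for the others. At 4 h Sphk1 stands highest at 3.21, Spns2 lowest at -0.95, and Sphk2 is the only open point of that time.

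Among the receptors, S1pr1 (chromosome 3, 115710433 to 115715072, minus strand, GRCm38) was by far the most abundant, and its libraries stood higher in each later group. The PBS libraries held 299, 323 and 306 CPM, those at LPS 15 min 484, 491 and 471, those at LPS 30 min 589, 598 and 606, and those at LPS 4 h 1175, 1187 and 1170. The 4 groups did not overlap. At 15 min the log2 difference from PBS was 0.64 (SE 0.0267, adjusted p 0.124), which did not pass the 1.5-fold test but passed the test against no change (adjusted p 7.41e-15). Without PBS replicate 2 it passed the 1.5-fold test as well (0.67, adjusted p 0.00948). S1pr1 had risen by 0.95 at 30 min (SE 0.0268, adjusted p 2.16e-11). By 4 h it had risen by 1.93 (SE 0.0273, adjusted p 4.48e-23), 3.80-fold. S1pr1 has 1 annotated transcript, so that no isoform enters these values. On the TPM scale, which corrects for transcript length but not for library composition, S1pr1 stood at 263 ± 7.36 (SD, n = 3) at LPS 15 min and 266 ± 1.26 at LPS 30 min, and these libraries overlapped.

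S1pr2 (chromosome 9, 20962361 to 20976781, minus strand), the receptor known for loosening the barrier, was the scarcest of the 8 genes. It was at 4.57, 5.63 and 4.24 CPM in PBS, 3.97, 3.70 and 4.42 at 15 min, 4.85, 4.99 and 5.68 at 30 min and 11.2, 10.7 and 8.61 at 4 h. PBS overlapped with both early groups, which lay apart from each other, and the 4 h libraries lay above all of them. It rose by 1.07 on the log2 scale at 4 h (SE 0.152, adjusted p 0.00161, 2.10-fold), and its SE, from 87 to 167 counts per library, was the widest of the 8. The call was lost with limma on the deposited gene table (adjusted p 0.0856).

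S1pr3 (chromosome 13, 51408639 to 51422797, plus strand), which couples to several G proteins and is known from vascular smooth muscle and endothelium, stayed within 1.5-fold for 30 min and rose at 4 h. Its PBS libraries were at 64.1, 60.1 and 58.9 CPM, those at LPS 15 min at 52.5, 55.7 and 58.7, and those at LPS 30 min at 53.5, 55.8 and 56.5. The 4 h libraries were at 126, 123 and 134 CPM, apart from all others, while both early groups lay below PBS by small margins. Log2 fold changes were -0.13 and -0.14 at the early times (adjusted p 1, and 0.0327 and 0.0260 against no change) and 1.07 at 4 h (SE 0.0479, adjusted p 6.54e-10, 2.09-fold).

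The remaining receptors did not follow. S1pr4, best known from leukocytes, went from 31.3 ± 2.05 CPM (SD, n = 3) in PBS to 3.71 ± 0.526 at 4 h, lower by 3.08 on the log2 scale (adjusted p 6.72e-16), and S1pr5 stood at 1.38 and 0.815 CPM (-0.75, adjusted p 0.333). In summed receptor TPM, the share of S1pr1 was 78.1% ± 1.10 (SD, n = 3) in PBS, 86.6% ± 0.914 at 15 min, 89.8% ± 0.180 at 30 min and 92.5% ± 0.303 at 4 h. The ratio of S1pr1 to S1pr3 TPM, which library scaling does not touch, was 7.59 ± 0.564 in PBS, at most 13.8 in the 15 min libraries, 16.2 ± 0.276 at 30 min and 13.9 ± 0.710 at 4 h. The libraries of each LPS group thus had a higher ratio than those of PBS, and the 4 h libraries a lower one than those of 30 min.

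Of the kinases, Sphk1 (chromosome 11, 116530925 to 116536674, plus strand), the inducible, mainly cytosolic enzyme, dipped first and then rose more than any other of the 8 genes. Its PBS libraries were at 27.3, 27.5 and 27.4 CPM. At LPS 15 min they were at 16.3, 14.4 and 14.4, at LPS 30 min at 21.6, 22.6 and 22.9, and at LPS 4 h at 254, 251 and 255. Every group was apart from every other, with all 15 min libraries lowest and all 4 h libraries at about the same high level. At 15 min Sphk1 fell by 0.86 on the log2 scale (SE 0.0537, adjusted p 0.000152, 1.82-fold). The call was lost with an offset for average transcript length (-0.78, adjusted p 0.117) and with limma on the gene table (-0.80, adjusted p 0.36). Beside this fall, 3 of 4 smooth muscle markers (Acta2, Cnn1 and Myh11) were called lower at 15 min, and the summed level of the 4 went from 2346 to 2382 CPM in PBS to 1488 to 1508, with Tagln not called. It was back at 2111 to 2159 at 30 min and 2218 to 2268 at 4 h, and the part of these cells in the fall of Sphk1 was not tested. Markers of other cell types were called at 15 min as well, and their part was not tested either. Cldn5, Kdr, Col1a1, Gfap, Ppbp and S100a9 were lower, and Slc17a7, Syt1 and Hbb-bs were higher. In bulk RNA, fewer cells of a type and less RNA per cell cannot be told apart. At 30 min the difference from PBS was -0.29 (adjusted p 1, and 9.79e-05 against no change). At 4 h it was 3.21 (SE 0.0437, adjusted p 1.70e-24), 9.25-fold higher than in PBS.

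**Figure D2:**
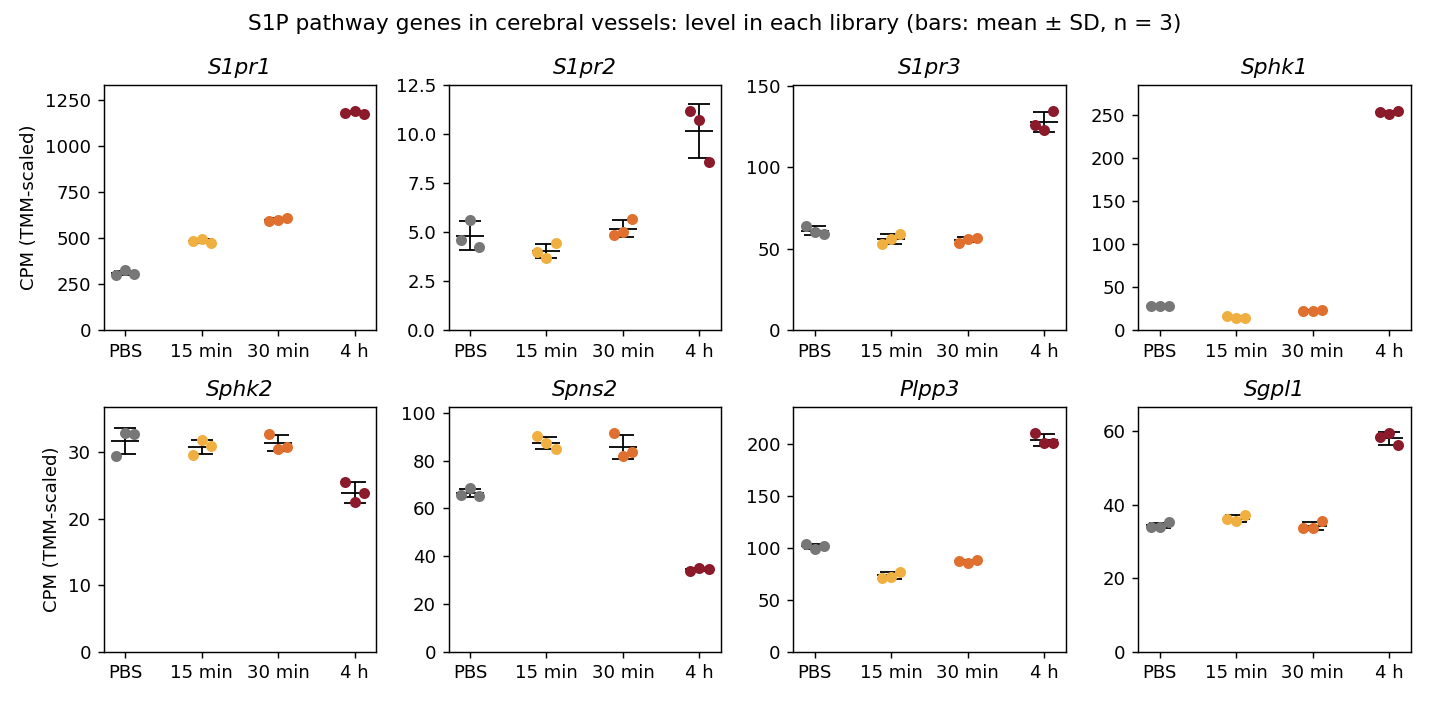
TMM-scaled CPM (y axis, from 0, with its own scale for each gene) of the 8 S1P genes in each of the 12 libraries, grouped as PBS and the 3 LPS times, with bars for mean ± SD of 3 libraries. Sphk1 goes from 27.4 CPM in PBS to 15.0, 22.4 and 253, Spns2 from 66.4 to 87.4, 85.7 and 34.4, and S1pr1 is higher in each later group.

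Sphk1 is annotated with several transcripts that begin at different places, and their estimated shares differed at 4 h. Sphk1-211, whose start lies farthest downstream of those named here (116534740), held 53.4% of Sphk1 TPM in PBS and 26.4% at 4 h, while its level went from 13.9 to 36.1 TPM. Sphk1-203, which starts at 116531911, was listed at 3.17, 0.69 and 0.00 TPM in PBS, at 0.00 in all LPS 15 min libraries, at 2.76, 1.38 and 2.88 at LPS 30 min, and at 26.9, 26.2 and 26.6 at LPS 4 h. It made up 19.4% to 19.5% of the gene in the 4 h libraries, against at most 11.8% in PBS. Sphk1-205, which starts upstream of it at 116531744, went from a mean of 0.439 to 13.6 TPM, and Sphk1-204, with its start at 116532444, from 3.22 to 20.5. All 4 of these transcripts were higher in each 4 h library than in any PBS library. The shares of Sphk1-203 and Sphk1-205 lay above those in PBS, while that of Sphk1-204 overlapped (5.93% to 22.3% in PBS and 13.2% to 16.2% at 4 h). Transcript values are estimates that divide shared reads, and they are given as a description.

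Because the transcripts differ in their starts, some RefSeq promoter windows of both kinases are shown (3 of 5 for Sphk1 and 1 of 2 for Sphk2), each reaching from 250 bases before to 50 bases after an annotated start (build GRCm38.p6). Of 12 windows found for 7 of the 8 genes, S1pr1 excepted, 4 are shown. Capitals mark matches, on either strand, to NF-kB (GGNNNTTCC), AP-1 (TGANTCA), CRE (TGACGTCA), STAT (TTCNNNGAA) or E-box (CACGTG) motifs, and positions count from 0 at the start site.
Sphk1, window near Sphk1-209 and Sphk1-210 (chr11:116530850-116531149, plus strand): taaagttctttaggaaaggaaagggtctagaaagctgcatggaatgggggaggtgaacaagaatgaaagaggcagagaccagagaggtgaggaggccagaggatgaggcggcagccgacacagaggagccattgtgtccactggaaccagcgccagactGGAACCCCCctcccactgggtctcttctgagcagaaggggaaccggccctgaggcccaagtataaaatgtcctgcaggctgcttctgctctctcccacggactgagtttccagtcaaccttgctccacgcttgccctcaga
Sphk1, window at the start of Sphk1-203 (chr11:116531661-116531960, plus strand): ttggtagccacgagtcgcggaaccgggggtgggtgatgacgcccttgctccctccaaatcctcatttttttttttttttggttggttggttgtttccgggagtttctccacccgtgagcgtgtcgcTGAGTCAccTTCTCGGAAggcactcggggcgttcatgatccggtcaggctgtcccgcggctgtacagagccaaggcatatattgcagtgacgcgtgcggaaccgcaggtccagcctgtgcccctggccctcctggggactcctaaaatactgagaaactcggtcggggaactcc
Sphk1, window at the start of Sphk1-204 (chr11:116532194-116532493, plus strand): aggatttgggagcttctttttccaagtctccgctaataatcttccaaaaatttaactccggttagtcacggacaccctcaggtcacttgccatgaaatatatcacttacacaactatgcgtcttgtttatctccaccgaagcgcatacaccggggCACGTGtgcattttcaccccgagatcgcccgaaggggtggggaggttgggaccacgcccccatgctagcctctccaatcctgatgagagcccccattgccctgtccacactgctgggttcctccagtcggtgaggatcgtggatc
Sphk2, window at the start of Sphk2-202 (chr7:45717953-45718252, minus strand): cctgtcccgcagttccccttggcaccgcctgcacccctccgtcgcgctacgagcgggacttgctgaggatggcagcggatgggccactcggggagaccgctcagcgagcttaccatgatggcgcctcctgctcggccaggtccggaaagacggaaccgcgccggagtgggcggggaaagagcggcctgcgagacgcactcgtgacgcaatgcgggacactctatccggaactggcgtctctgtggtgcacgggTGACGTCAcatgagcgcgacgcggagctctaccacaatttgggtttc

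The window of Sphk1-203 holds an AP-1 match at -124 to -118 and a STAT match at -115 to -107, which do not overlap. The window near Sphk1-209 holds an NF-kB match in its reverse form at -91 to -83, and that of Sphk1-204 an E-box at -95 to -90. The window of Sphk2 holds a CRE at 3 to 10 that overlaps a KLF match (CACCC, in its reverse form, at 0 to 4), and S1pr2, whose window is not shown, holds a CRE at -181 to -174. Over all 32851 RefSeq windows of this length, 18.5% hold the NF-kB motif, 7.81% AP-1, 8.30% STAT, 7.15% the E-box, 1.79% CRE, 57.5% KLF and 35.7% the SP1 motif GGGCGG. The windows of S1pr3, Plpp3, Sgpl1 and Spns2, and the Sphk2 window not shown, hold none of the 5 capitalised motifs. That of Spns2 lies 14877 bases from the start of its main coding transcript. A match describes letters, and no match says nothing of a factor.

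Sphk2 (chromosome 7, 45709467 to 45718002, minus strand), the kinase found largely in the nucleus and on internal membranes, did not rise. It stood at 29.5, 32.9 and 32.8 CPM in PBS, 29.6, 31.8 and 30.9 at 15 min, 32.7, 30.5 and 30.8 at 30 min and 25.5, 22.4 and 23.8 at 4 h. The first 3 groups overlapped and the 4 h libraries lay below them. The log2 difference at 4 h was -0.41 (SE 0.0685), not called beyond 1.5-fold (adjusted p 1) but past the test against no change (adjusted p 1.47e-05), and scaled by library size alone it was called lower. On the opposite strand, Dbp overlaps the end of Sphk2 over 737 bases, and Rpl18 overlaps its start over 2546. The kit used here does not mark strand, so reads in the overlaps cannot be told apart. Dbp, a clock-controlled transcription factor, had 3320 to 3741 counts in the PBS libraries and 6475 to 7920 at 15 min. It had 5412 to 5591 at 30 min and 283 to 321 at 4 h. Rpl18 had 6040 to 7447, 6120 to 7588, 6638 to 7131 and 3790 to 4142 counts in the same order. The part of reads from either gene in the Sphk2 values was not tested. The ratio of Sphk1 to Sphk2 TPM was 1.51 ± 0.154 (SD, n = 3) in PBS, 0.913 ± 0.154 at 15 min, 1.28 ± 0.115 at 30 min and 19.0 ± 0.805 at 4 h. Sphk1 thus made up 60.1% of kinase TPM in PBS, 47.5% at 15 min, 56.0% at 30 min and 95.0% at 4 h, and the libraries of 4 h were apart from all others.

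The exporter Spns2 (chromosome 11, 72451638 to 72489904, minus strand) was the gene called lower at 4 h. Its PBS libraries held 65.6, 68.5 and 65.3 CPM. At LPS 15 min they held 90.1, 87.1 and 85.0, at LPS 30 min 91.5, 82.0 and 83.6, and at LPS 4 h 33.6, 34.9 and 34.7. Both early groups lay above PBS and overlapped each other, and all 4 h libraries were below every other library. In TPM, however, the 30 min libraries (mean 44.1) overlapped with those of PBS (mean 42.8). Against PBS the log2 difference was 0.40 at 15 min and 0.37 at 30 min. Neither passed the 1.5-fold test (adjusted p 1), and both passed the test against no change (adjusted p 1.53e-07 and 6.09e-07). At 4 h Spns2 fell by 0.95 (SE 0.0522, adjusted p 2.98e-07), 1.93-fold. Beside it, 5 of 8 endothelial markers were called lower at 4 h (Cldn5, Kdr, Pecam1, Slco1c1 and Tek), 1 higher (Cdh5) and 2 neither (Flt1 and Ly6c1), and the summed level of the 8 lay between 8352 and 8564 CPM in PBS and 6431 and 6473 at 4 h. The median log2 difference of these 8 markers was -1.24, while Cdh5 went from 486 to 1889 CPM. In summed TPM the 8 were at 8868 in PBS and 3578 at 4 h. The part of endothelial cell number in the fall of Spns2 was not tested. Its coding transcript Spns2-201 was at 26.9, 28.2 and 25.6 TPM in PBS, 31.1, 30.7 and 29.7 at 15 min, 32.2, 27.4 and 26.2 at 30 min and 4.41, 5.84 and 5.12 at 4 h. The retained-intron transcript Spns2-203 went from 7.34 to 14.7 TPM at 15 min and stood at 4.87 at 4 h, and the processed transcript Spns2-206 went from 6.75 to 15.2 and 2.92. The coding transcript therefore made up 63.0% of Spns2 TPM in PBS, 49.7% at 15 min, 64.8% at 30 min and 39.7% at 4 h.

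**Figure D3:**
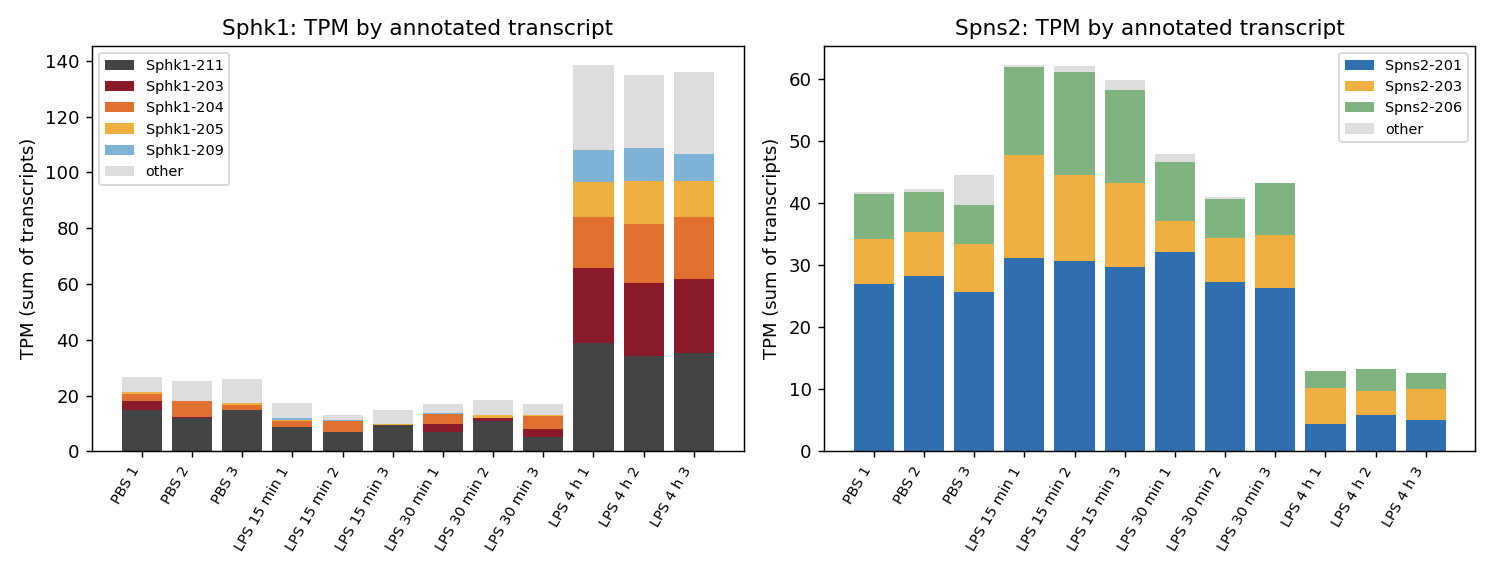
Stacked TPM (y axis) of annotated Sphk1 and Spns2 transcripts in each of the 12 libraries, with the less abundant transcripts joined as other. At LPS 4 h Sphk1-203 and Sphk1-204 stand at 26.5 and 20.5 TPM on average beside 36.1 for Sphk1-211, and Spns2-201 falls from 26.9 TPM in PBS to 5.12.

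Of the 4 other transporters and carriers listed, 2 could be tested. Mfsd2b, the exporter known from red cells and platelets, rose by 1.21 at 4 h (adjusted p 0.000326) from 3.95 to 9.10 CPM, but was not called by library size alone (0.50, adjusted p 0.585). Beside it, the summed level of 3 red cell markers went from 1528 to 4533 CPM with all 3 called higher. That of 4 platelet markers went from 35.3 to 53.0 CPM, with Pf4 called and Itga2b (0.71), Ppbp (-0.21) and Gp9 (-0.47) not called. In summed TPM the red cell markers were at 5947 in PBS and 9634 at 4 h, and the platelet markers at 94.1 and 86.8. Their part in the rise of Mfsd2b was not tested. Spns1 stood at 62.9 and 41.7 CPM (-0.59, adjusted p 0.444), and Spns3 and Apom were under the filter.

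Of the genes that remove S1P, Plpp3 (chromosome 4, 105157347 to 105232764, plus strand), a cell surface phosphatase of S1P and lysophosphatidic acid, had a time course like that of Sphk1 but shallower. It was at 104, 98.9 and 101 CPM in PBS, 71.1, 72.3 and 77.3 at 15 min, 87.8, 85.5 and 88.4 at 30 min and 211, 201 and 201 at 4 h. No library of 1 group overlapped with those of another, and the 15 min libraries were lowest. The log2 difference was -0.47 at 15 min (SE 0.0375, adjusted p 1, and 8.53e-10 against no change) and -0.22 at 30 min. At 4 h Plpp3 rose by 1.01 (SE 0.0365, adjusted p 4.83e-11, 2.01-fold). The low point at 15 min fell at the same time as that of the smooth muscle markers given above. It was also that of 7 astrocyte markers, whose summed mean was 743 CPM in PBS and 591, 785 and 1428 at the LPS times. Of these, Gfap was called lower at 15 min. At 4 h Aqp4, Gfap and Gja1 were called higher, and Aldh1l1, Slc1a2, Slc1a3 and S100b were not called. The part of either cell type in the course of Plpp3 was not tested.

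Sgpl1 (chromosome 10, 61098642 to 61147703, minus strand), the lyase, differed little in CPM until 30 min. It was at 33.9, 33.9 and 35.2 CPM in PBS, 36.0, 35.5 and 37.2 at 15 min, 33.7, 33.7 and 35.5 at 30 min and 58.4, 59.5 and 56.2 at 4 h. The 15 min libraries lay just above those of PBS (0.08, adjusted p 0.238 against no change), and the 4 h libraries were apart from the rest. Sgpl1 rose by 0.76 at 4 h (SE 0.0507, adjusted p 0.00105, 1.69-fold). The call was lost with the length offset (0.66, adjusted p 0.193) and with limma on the gene table (0.66, adjusted p 0.496).

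Within the 14 genes of S1P turnover, 13 were tested and 1 was called lower at each early time, Sphk1 at 15 min and Sgpp2 at 30 min. At 4 h 5 were called higher (Sphk1, Plpp3, Sgpl1, Sgpp1 and Acer3) and 1 lower (Sgpp2). Scaled by library size alone, where 54.6% of all genes were called, the balance turned to 1 higher (Sphk1) and 4 lower (Sgpp2, Sphk2, Asah1 and Aldh3a2). The 2 S1P phosphatases of the endoplasmic reticulum parted ways. Sgpp1 rose from 39.8 to 64.0 CPM (0.68, adjusted p 0.0405, but -0.02 when scaled by library size alone) and Sgpp2 fell from 117 to 13.9 CPM (-3.08, adjusted p 2.88e-20). Acer3, an alkaline ceramidase that frees sphingosine, rose by 1.08 (adjusted p 1.25e-06, but 0.38 with adjusted p 1 by library size alone). Acer2 was at 160 CPM in PBS and at 238, 240 and 226 at the 3 LPS times (adjusted p 1 at each), and Asah1, the lysosomal ceramidase, at 68.9 and 43.3 CPM in PBS and at 4 h (-0.67, adjusted p 0.054). Plpp1, Plpp2, Asah2 and Aldh3a2 were not called at any time (0.44, 0.12, 0.56 and -0.29 at 4 h), and Acer1 was under the filter.

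Compared directly between LPS times, no S1P gene was called from 15 to 30 min with edgeR, where 4.65% of all genes were called, 2.69% higher and 1.96% lower, and none of the 8 had an unadjusted p under 0.05. Against no change, 3 of 8 were called, all higher at 30 min (S1pr1 0.31, Sphk1 0.57 and Plpp3 0.25), where 37.4% of all genes were called, 19.2% higher and 18.2% lower, and the groups did not overlap for 4 of 8 and for 47.6% of all genes. DESeq2 with the 1.5-fold limit called none. From 30 min to 4 h 7 of 8 were called, 6 higher and Spns2 lower, where 28.6% of all genes were called, 16.9% higher and 11.8% lower. Sphk1 rose by 3.50 on the log2 scale (SE 0.0458, adjusted p 8.93e-25, 11.3-fold), Plpp3 by 1.23 and S1pr3 by 1.21. S1pr1 rose by 0.98, S1pr2 by 0.97 and Sgpl1 by 0.76. Spns2 fell by 1.32 (SE 0.0519, adjusted p 1.85e-12, 2.49-fold), and Sphk2 differed by -0.39 (adjusted p 1). Against no change all 8 were called, 6 higher and 2 lower, against 65.3% of all genes, 31.9% higher and 33.3% lower, and the groups did not overlap for 8 of 8 and for 67.5% of all genes.

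How far the 4 h libraries count as higher depends on the scale. The TMM factors were 0.715 to 0.718 at LPS 4 h and 1.16 to 1.17 in PBS, and scaling by library size alone moved the median of all genes to -0.71 at 4 h, -0.17 at 30 min and -0.03 at 15 min. On that scale 2 S1P genes were called higher at 4 h, Sphk1 (2.51) and S1pr1 (1.22), and 2 lower, Spns2 (-1.65) and Sphk2 (-1.11), so 4 of 8, where 54.6% of all genes were called. S1pr2 (0.37), S1pr3 (0.36), Plpp3 (0.31) and Sgpl1 (0.05) were not called. The ratio of mean TPM gave 2.40 for Sphk1, 1.02 for S1pr1, 0.15 for S1pr3, 0.11 for S1pr2, 0.09 for Plpp3, -0.22 for Sgpl1, -1.26 for Sphk2 and -1.73 for Spns2, so the direction of Sgpl1 turned there. The rise of Sphk1 and S1pr1 and the fall of Spns2 were past 1.5-fold on all 3 scales, while the rises of S1pr2, S1pr3, Plpp3 and Sgpl1 were seen relative to the bulk of genes.

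**Figure D4:**
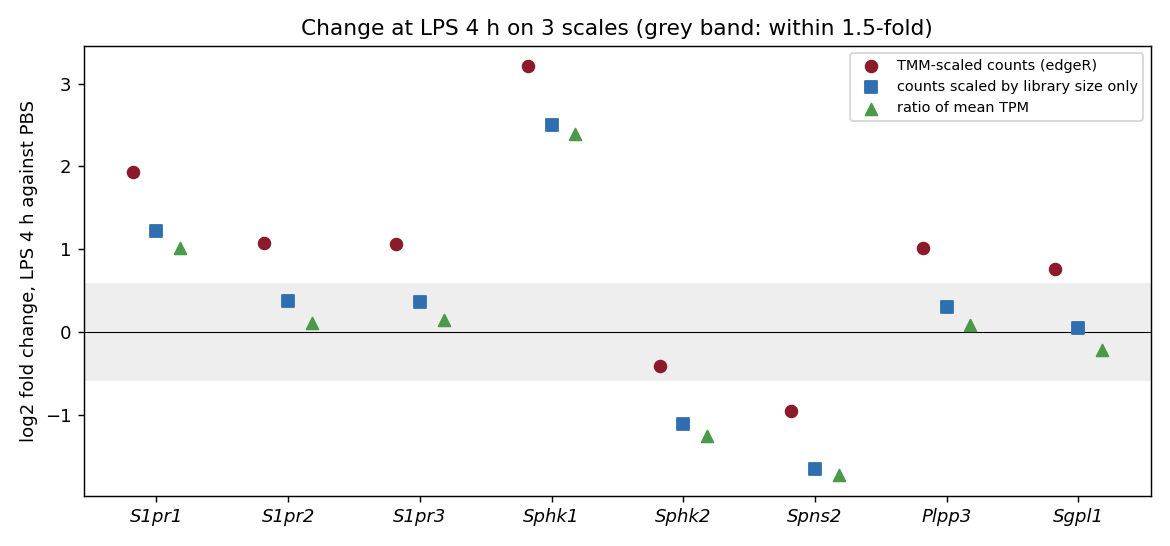
Log2 fold change of each S1P gene at LPS 4 h against PBS (y axis) from TMM-scaled counts, from counts scaled by library size alone and as a ratio of mean TPM, with a grey band for changes within 1.5-fold. Sphk1 and S1pr1 stay above the band and Spns2 below it on all 3 scales, and Sphk2 lies below it on 2.

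Levels of different genes were compared per transcript length, as mean TPM of 3 libraries. In PBS the order was S1pr1 (170), Plpp3 (54.3), Spns2 (42.8), Sphk1 (25.9), S1pr3 (22.4), Sphk2 (17.2), Sgpl1 (16.7) and S1pr2 (1.30), and among neighbours in this order Sphk2 and Sgpl1 were those whose libraries overlapped. At LPS 15 min Spns2 (61.4) stood above Plpp3 (38.9), and Sphk1 (15.1) was second to last, overlapping with Sgpl1 (15.7). At LPS 30 min the order of the first 3 was S1pr1 (266), Spns2 (44.1) and Plpp3 (37.5). At LPS 4 h it was S1pr1 (344), Sphk1 (136), Plpp3 (57.8), S1pr3 (24.8), Sgpl1 (14.4), Spns2 (12.9), Sphk2 (7.20) and S1pr2 (1.40), with overlap between Sgpl1 and Spns2. Sphk1 thus went from the fourth place to the second and Spns2 from the third to the sixth. The ratio of Spns2 to Plpp3 was 0.790 ± 0.0488 (SD, n = 3) in PBS, 1.58 ± 0.0880 at 15 min, 1.17 ± 0.0768 at 30 min and 0.224 ± 0.00994 at 4 h, and the 4 groups did not overlap.

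Around the 8 genes, lists that feed the pathway or carry its signal moved in both directions at 4 h. Of 16 tested genes of de novo ceramide synthesis, 2 were higher and 5 lower. Sptlc2, a subunit of the enzyme that starts sphingolipid synthesis, rose by 1.78 (99.7 to 341 CPM) and the ceramide synthase Cers6 by 1.11. Degs2, a desaturase and hydroxylase of the dihydroceramides, fell by 4.38 (96.0 to 4.60 CPM) and Ormdl1, an inhibitor of the first step, by 1.24. Among 10 genes that exchange ceramide with other sphingolipids, Sgms2, a sphingomyelin synthase, rose by 1.83 and Ugcg, which makes glucosylceramide, by 1.54, and the sphingomyelinase Smpd2 fell by 1.48. Neither list had a call at 15 or 30 min. Scaled by library size alone, the calls were 1 higher and 9 lower in the former and 2 higher and 5 lower in the latter, where 54.6% of all genes were called.

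Of 16 genes that couple S1P receptors to the cytoskeleton, 5 were called higher and 3 lower at 4 h, and 2 higher (Rhob and Gna13) and 6 lower by library size alone. Rhob, a small GTPase, was higher at all 3 times (1.17, 1.98 and 2.52, from 343 to 771, 1355 and 1964 CPM). Gna13, a G protein subunit to which S1PR2 couples, rose by 2.37 at 4 h (56.7 to 294 CPM), whereas Gna11 fell by 1.88 and Tiam1, an activator of Rac, by 1.60. Klf2, a transcription factor known to drive S1pr1 in lymphocytes, was at 347 CPM in PBS and at 1202, 1083 and 549 at the 3 LPS times (1.79, 1.64 and 0.66, adjusted p 9.54e-22, 3.68e-21 and 0.00203). Scaled by library size alone, the 4 h difference of Klf2 was -0.04, so its direction turned. Cd69, which takes S1PR1 off the surface of lymphocytes, went from 0.345 to 6.07 CPM at 4 h (4.13, adjusted p 3.94e-09), and Grk2, a kinase of activated receptors, was not called (-0.52). Beside Cd69, all 8 tested of 9 neutrophil markers were called higher at 4 h, their sum going from 7.12 to 8.86 CPM in the PBS libraries to 234 to 238, and the part of blood cells in its rise was not tested.

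In the lysophosphatidic acid system, a lipid signal that Plpp3 also ends, Enpp2, the enzyme that makes it, rose by 0.90 at 4 h on the TMM scale (3252 to 6069 CPM). By library size alone its difference was 0.20 (adjusted p 1), and its mean TPM was 1830 in PBS and 1826 at 4 h. The receptors Lpar4 and Lpar6 fell by 1.40 and 0.99, and Lpar4 was lower at 15 min as well (-1.23, adjusted p 0.00216). Enpp2 is also abundant in choroid plexus, whose 3 markers went from a summed 10438 to 17811 CPM with Ttr and Kl called higher. In summed TPM these markers were at 16860 in PBS and 15382 at 4 h. The part of choroid plexus in the rise of Enpp2 was not tested.

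**Figure D5:**
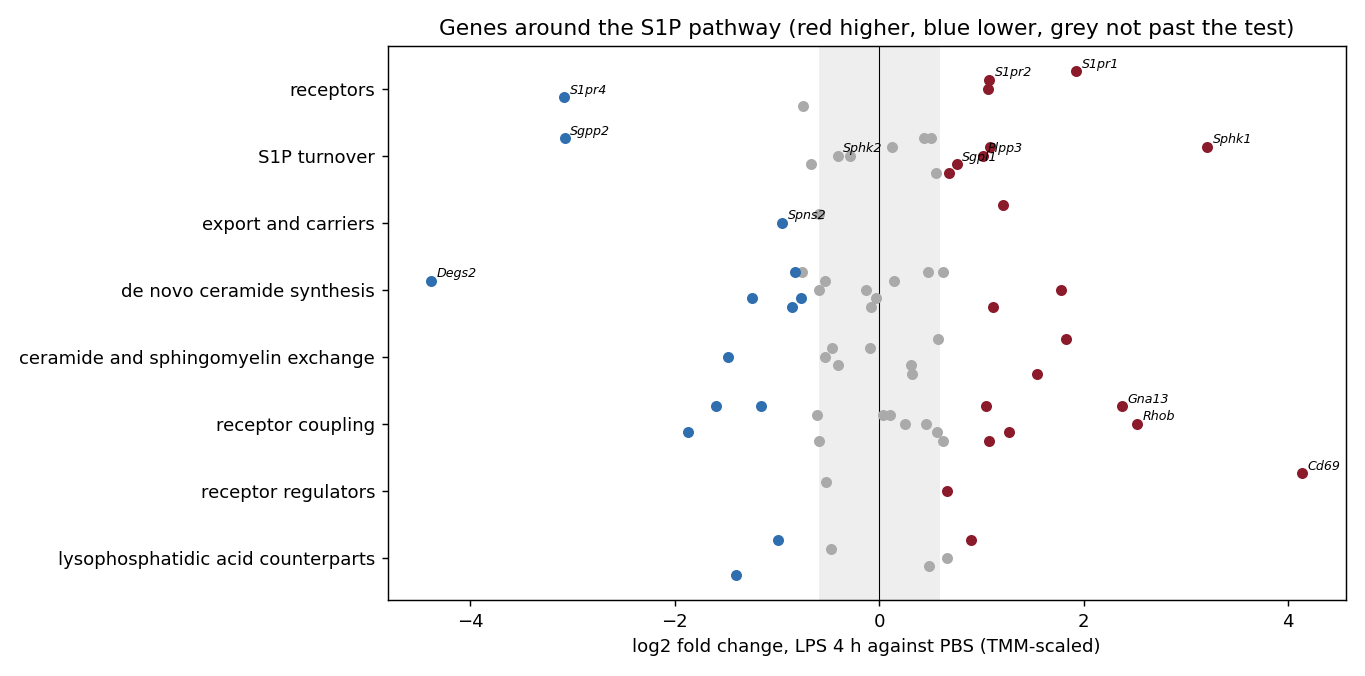
Log2 fold change at LPS 4 h against PBS (x axis, TMM-scaled) of each tested gene in 8 lists around the S1P pathway (rows), coloured by whether it was called higher, lower or neither, with a grey band for changes within 1.5-fold. The receptors split into 3 higher and S1pr4 at -3.08, and the turnover list runs from Sgpp2 at -3.08 to Sphk1 at 3.21.

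The genes closest to each S1P gene over the 12 libraries were found by Pearson's r of log2 CPM among 13110 genes. For S1pr1 they were Gimap6 (r = 0.999), Sema7a and Plk2, for Sphk1 Sema6a (0.999), Parp3 and Fstl1, and for Plpp3 Pgf (0.996), Twsg1 and Ano6. For S1pr3 they were Hivep1 (0.996), Gm4841 and Tnfrsf11a, for S1pr2 Hmox2 (0.986), Vrk3 and Cpne3, and for Sgpl1 Naa20 (0.998), Scyl2 and Timeless. Spns2 lay closest to Tmeff1 (0.997), Dbp and Mfsd2a, and Sphk2 to Cdk2ap1 (0.978), Klhdc2 and Mtss1l. The 12 libraries fall into 4 groups with one far from the rest, so that a high r mostly describes the same order of group means.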

How the data were processed

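The authors ran Salmon 1.2.1 and deposited, for each of 140948 transcripts, estimated counts of fragments (not normalized), TPM values and effective lengths. They also deposited a gene table of normalized signal: counts divided by DESeq2 size factors on GRCm38.p6. All per-library columns were used. Estimated counts were joined by transcript identifier to GENCODE M21 (139852 joined, the rest left out), summed to genes and rounded. Groups came from the sample records. Counts were filtered (filterByExpr, minimum count 10, total 15, share 0.7), TMM-scaled and fitted in edgeR 4.0.16 (R 4.3.3), all 12 libraries in 1 quasi-likelihood fit, and glmTreat tested each of 5 comparisons against a null of at most 1.5-fold. SEs were obtained from the quasi-likelihood F of each contrast. The fit was tested on simulated data. Alternatives were DESeq2 1.42.0 with a local dispersion trend (whether its parametric trend converged changed with the number of computing threads), limma 3.58.1 on log2 of the gene table with 1 added, other scaling, no filter, no fold limit, a length offset, a replicate block and leaving out each library. Named genes were the 8 members, the receptor, turnover and carrier lists, from each other list genes called at 15 or 30 min and the 4 largest changes called at 4 h, and the 3 closest genes by r (log2 CPM, prior count 2, mean count of at least 100). Spns2 transcripts and markers were named besides. The members, lists and tests were chosen with earlier results of these data known. Promoters came from RefSeq windows.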

Additional observations from a re-analysis of the deposited data

Results flagged for a closer look

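For 7 of the S1P genes the effect of LPS differed between 30 min and 4 h by the direct edgeR test between these groups. On the log2 scale, 4 h less 30 min, the difference was 3.50 for Sphk1, 1.23 for Plpp3, 1.21 for S1pr3, 0.98 for S1pr1, 0.97 for S1pr2, 0.76 for Sgpl1 and -1.32 for Spns2. Against PBS, Sphk1 was at -0.86, -0.29 and then 3.21 in time order, and Spns2 at 0.40, 0.37 and -0.95, so each stood on opposite sides of PBS at early and late times. Only the fall of Sphk1 at 15 min and both 4 h changes passed the 1.5-fold test. Groups of 3 libraries were too small to look for outlying libraries.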

How the results depend on the processing

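With no fold limit, S1P genes called against PBS were 2 higher and 3 lower at 15 min and again at 30 min. At 4 h they were 6 higher and 2 lower. From 15 to 30 min 3 were higher, and from 30 min to 4 h 6 were higher and 2 lower. With library size only, 2 were higher and 2 lower at 4 h, and 3 higher and 2 lower from 30 min to 4 h, where 54.6% and 46.2% of all genes were called. The length offset and limma each left 0 lower at 15 min. Leaving out single libraries kept each count except that higher at 15 min, 0 to 1. Differences near 0 changed sign: Sgpl1 at 15 min (-0.0861 with the offset, -0.0989 with limma), S1pr2 at 30 min (-0.0638) and Sphk2 from 15 to 30 min (-0.112) with library size only, and, without single libraries, Sphk2 at 30 min (-0.0666 to 0.0107) and from 15 to 30 min (-0.00434 to 0.0515), Sgpl1 at 30 min (-0.0259 to 0.0159), S1pr3 (-0.0514 to 0.0310) and Spns2 (-0.0785 to 0.00258) from 15 to 30 min. S1pr2 from 30 min to 4 h was not called with DESeq2, the offset, limma or library size only. Deviations of same-numbered libraries correlated at -0.05 to 0.07 over 18 pairs, so the numbers were not a pairing; with the replicate block 6 genes were higher and 1 lower at 4 h. S1pr2, with 87 to 167 counts per library, is the least precise of the 8. Over all genes tested, calls at 15 min, at 30 min, at 4 h, between the early times and from 30 min to 4 h numbered 800, 877, 6273, 891 and 5484. With no fold limit they numbered 7393, 7066, 13124, 7153 and 12498. Library size only gave 10462 at 4 h and 8848 from 30 min to 4 h, and limma gave 406 at 15 min, 531 at 30 min and 443 between them.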
